A study of Homo sapiens with 8 samples.

Results

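The genes of human chromosome 10 were followed along the chromosome in MDA-MB-231 cells whose SUN2 gene was altered. A gene was taken as a member when the deposited table of SUN2KO against WT placed it on chromosome 10 and it had at least 80 counts in total over the 8 libraries. This gave 533 members of 960 genes listed on the chromosome, and of 13495 genes with at least 80 counts in the series. All 533 passed the filter on low counts. Members were grouped by their start on the hg19 genome: 11 in the p tip (start under 5 Mb), 83 in the p zone (5 to 30 Mb), 234 in the middle zone (30 to 95 Mb), 183 in the q zone (95 to 130 Mb) and 22 in the q tip (130 Mb and above). The limits of 5, 30, 95 and 130 Mb had been drawn from differences against WT in these same libraries. Values against WT are therefore given as a description. Calls against WT are counted by zone only, beside the share over all tested genes, and nothing is read from them. The comparisons of the modified lines with each other are tested.

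MDA-MB-231 is an established human cell line from a triple-negative breast cancer. Total RNA of 4 groups, 2 libraries each, was sequenced: WT, the unmodified line; SUN2KO, with SUN2 knocked out; Kashlid, with a SUN2 lacking residues 569 to 585, meant to cut its link to Nesprin-2G; and LBD, with a SUN2 lacking residues 1 to 139, the lamin binding domain, meant to cut its link to the lamins. SUN2 spans the inner nuclear membrane and joins the lamina to the cytoskeleton. The labels do not say whether a line is a single clone, how the truncations were introduced, whether they were made in WT or SUN2KO cells, or whether the 2 replicates are separate cultures, so p-values measure only the spread between libraries, which may be technical.

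In RNA-seq of bulk cells a gene's count follows the number of gene copies, the activity of each copy and the stability of the RNA. A gain or loss of a stretch of a chromosome can move many neighbouring genes the same way, whatever they do. Regulation through a shared pathway can move genes that lie far apart, and neighbours too. Cultured cancer lines such as MDA-MB-231 carry rearranged chromosomes, and clones taken from one culture can differ in them. Counts per gene cannot tell copy number, differences between clones and changed transcription apart. Nor can they tell fewer cells of a kind from less RNA per cell.

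The promoter of 1 member from each of the 3 main zones is shown first, as an example only. Each is the listed gene whose mean difference from WT lay nearest its zone's median. The sequences are RefSeq's, on GRCh38.p14, 250 bases up to the start of the gene, 5′ to 3′ on the gene's strand. Capitals mark matches on either strand to 3 promoter motifs: the GC box GGGCGG, the CCAAT box CCAAT and the TATA box TATAAA. NMT2, an enzyme that attaches myristate to proteins, stands for the p zone (chr10:15168694-15168943, minus strand). IDE, a protease that degrades insulin, stands for the middle zone (chr10:92574094-92574343, minus strand), and TACC2, a protein that binds centrosomes and microtubules, for the q zone (chr10:121994382-121994631, plus strand).
NMT2: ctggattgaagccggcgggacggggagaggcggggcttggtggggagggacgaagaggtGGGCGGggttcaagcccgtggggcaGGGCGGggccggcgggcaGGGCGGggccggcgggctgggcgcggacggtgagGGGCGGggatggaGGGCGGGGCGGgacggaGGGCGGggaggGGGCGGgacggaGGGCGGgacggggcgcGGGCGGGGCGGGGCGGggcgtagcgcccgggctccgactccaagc
IDE: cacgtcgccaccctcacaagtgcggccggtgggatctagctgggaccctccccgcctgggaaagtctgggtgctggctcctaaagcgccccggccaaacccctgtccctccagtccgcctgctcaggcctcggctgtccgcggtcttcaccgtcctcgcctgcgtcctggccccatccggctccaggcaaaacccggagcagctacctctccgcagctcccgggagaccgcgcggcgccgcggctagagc
TACC2: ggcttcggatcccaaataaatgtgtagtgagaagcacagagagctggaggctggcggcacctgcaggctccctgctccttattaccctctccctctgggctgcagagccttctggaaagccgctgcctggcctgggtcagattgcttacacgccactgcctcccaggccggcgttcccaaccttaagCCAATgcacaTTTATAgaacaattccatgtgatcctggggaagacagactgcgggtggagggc
NMT2 held 12 matches to the GC box, some of them overlapping, IDE held no match to any of the 3, and TACC2 held 1 CCAAT box and 1 TATA box on the minus strand. A RefSeq promoter was matched for 450 of the 533 members, and windows of 250 bases before to 50 bases after the start were searched. GGGCGG was present in 67.1% of matched promoters of the p zone, 62.4% of the middle zone and 64.4% of the q zone, against 44.6% of all 27305 promoters of the table. CCAAT was present in 31.6%, 32.3% and 38.8%, against 35.7% of all, and TATAAA in 3.95%, 5.38% and 6.25%, against 12% of all. The median GC content was 67.7%, 64.3% and 65% in the 3 zones, against 58.3% for all. The differences between the p zone and the q zone, which lay on opposite sides of WT, were small beside those from all promoters for GGGCGG and TATAAA. For CCAAT they were not: the p zone lay below the share of all promoters and the q zone above it. Members were chosen by their counts and the promoters of the table were not. A match is a description of letters and not a bound site.

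Total counts lay between 16570099 and 18814795 per library. SUN2, on chromosome 22, stood at 82.3 and 81 CPM (counts relative to library size) for WT, 25.2 and 30.2 for SUN2KO, 37.7 and 35.8 for Kashlid, and 32.8 and 34.9 for LBD. The 6 markers of MDA-MB-231, one of which is VIM, itself a member of the p zone, summed to 1223 to 1278 CPM in WT, and lower in SUN2KO (1071 to 1099), Kashlid (1060 to 1065) and LBD (1175 to 1222). Not all of them were lower: CD44 stood at 410 and 424 CPM in LBD against 323 and 333 in WT. SPARC stood at 164 and 160 CPM in SUN2KO against 129 and 137 in WT. The 6 luminal breast markers summed to 12.2 to 22.4 CPM, with PGR at no more than 1 count, and the 6 markers of HEK293 cells, whose relative HEK293T the labels' growth protocol also describes, to 4.93 to 9.17 CPM, with NEFL, NEFM, PAX2 and DLK1 at no more than 3 counts. Luminal markers summed higher in each modified library (15.4 to 22.4 CPM) than in WT (12.2 to 14.1), and HEK293 markers lower (4.93 to 6.43 against 9 to 9.17). The luminal sum was mostly ERBB3, at 13.1 to 17.2 CPM in the modified libraries and 9.64 and 11.2 in WT. ESR1 was lower in Kashlid (0.411 and 0.356 CPM) than in WT (0.76 and 0.675) and overlapped with WT in SUN2KO and LBD. GATA3 and KRT19 had at most 15 counts. The HEK293 sum was mostly TUBB2B, at 4.52 to 5.52 CPM in the modified libraries and 8.83 to 9.06 in WT, whereas LIN28B had 0 counts in both WT libraries and stood at 0.352 to 0.911 CPM in the modified ones. Their part in the results was not tested.

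The members of the p zone were lower, and those of the q zone higher, in all 3 modified lines than in WT. The median log2 fold change in the p zone was -0.46 in SUN2KO, -0.50 in Kashlid and -0.53 in LBD, that is 0.728, 0.707 and 0.692 of the WT level. In the q zone it was 0.36, 0.38 and 0.37, or 1.282, 1.298 and 1.294 of the WT level. The middle zone lay near WT, with medians of 0.08, 0.03 and 0.05. Both chromosome ends went further than the zone beside them: the p tip was at -0.59, -0.62 and -0.60, and the q tip at 0.60, 0.82 and 0.81. Tested genes off chromosome 10 had a median of 0.00 in each of the 3 comparisons. Among whole autosomes the lowest medians were those of chromosome 21, at -0.36, -0.38 and -0.38, so medians away from 0 were found on other chromosomes too. Chromosome 10 as a whole was at 0.16, 0.1 and 0.12. These are medians of whole chromosomes, not of stretches like the zones. The 3 comparisons share the same 2 WT libraries, so whatever is particular to those libraries enters all of them.

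**Figure D1:**
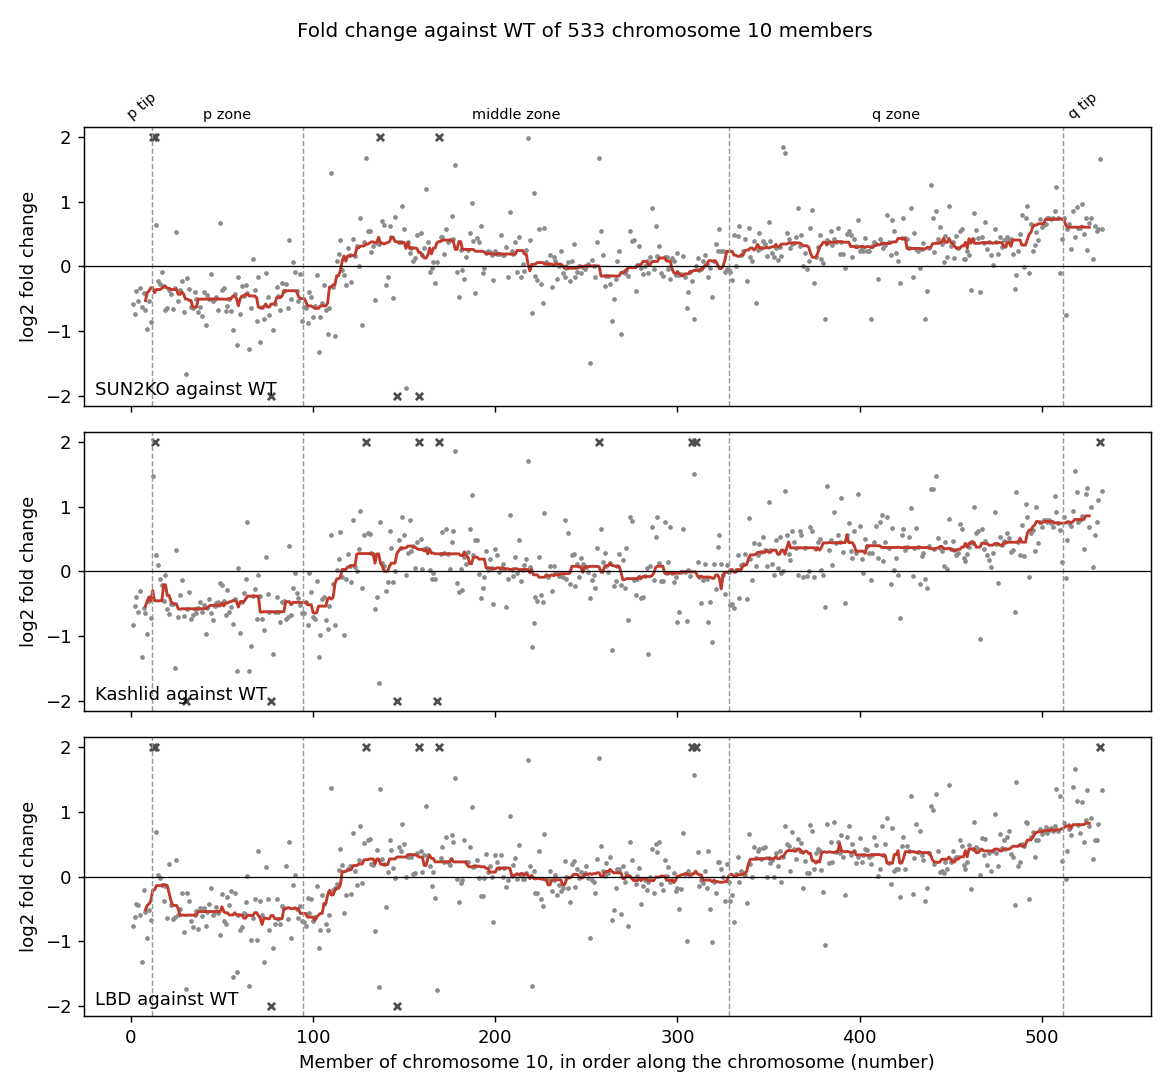
Log2 fold change against WT (vertical axis) of the 533 members of chromosome 10 in order along the chromosome (horizontal axis), for SUN2KO, Kashlid and LBD. Grey points are members, crosses are members beyond 2 in either direction drawn at the edge, the red line is the running median of 15 members, and dashed lines mark the zone limits. The line lies below 0 through the p tip, the p zone and the first members of the middle zone, crosses 0 there, lies on both sides of 0 in the later part of the middle zone, and is above 0 through the q zone and q tip except at RBP4 and FRA10AC1 of the q zone in Kashlid, where it is -0.012.

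The pattern was also followed library by library, against the same WT mean. The zones were drawn from these libraries, so their separation from WT is a description and not a test. On the scale of log2(CPM + 0.5) minus the mean of the 2 WT libraries, the p zone medians were 0.002 and -0.002 for WT, -0.391 and -0.457 for SUN2KO, -0.489 and -0.508 for Kashlid, and -0.483 and -0.486 for LBD. All 6 modified libraries lay below both WT libraries, without overlap. The q zone medians were 0.003 and -0.003 for WT, 0.343 and 0.344 for SUN2KO, 0.377 and 0.380 for Kashlid, and 0.349 and 0.344 for LBD. Here all 6 modified libraries lay above both WT libraries. In the middle zone the modified libraries lay between 0.023 and 0.086, above WT by far less. The WT values are centred on 0 by construction, so only their spread is informative.

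**Figure D2:**
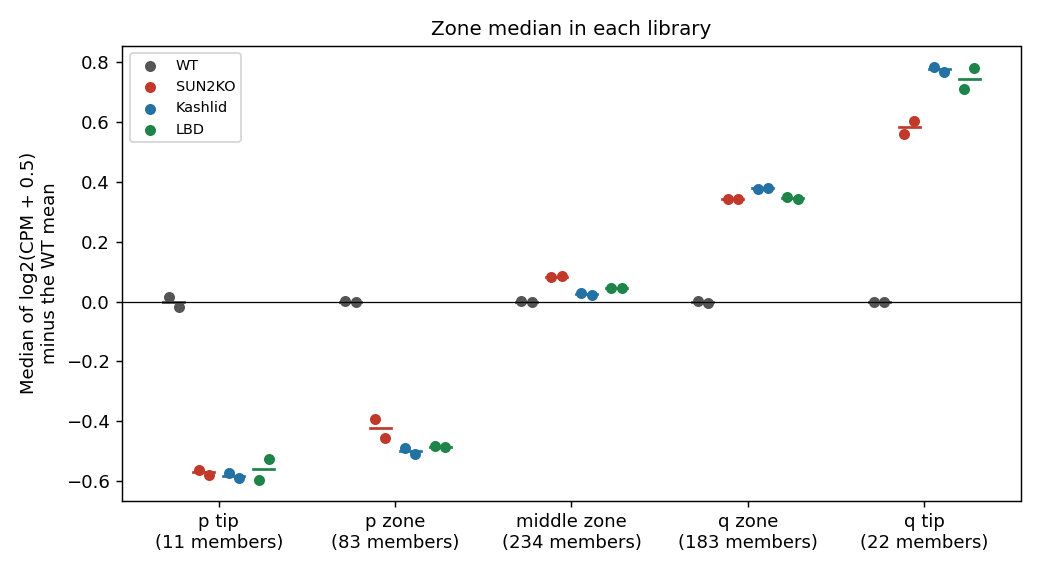
Median of log2(CPM + 0.5) minus the WT mean (vertical axis) of the members of each zone (horizontal axis), 1 point per library and a bar at the mean of the 2 libraries of a group. In the p zone the 6 modified libraries lie between -0.508 and -0.391, and in the q zone between 0.343 and 0.380, while the WT libraries stay within 0.017 of 0 in each zone.

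The summed level of a zone moved as the median did. The 83 members of the p zone summed to 3478 ± 10.6 CPM for WT (SD, n = 2), 2659 ± 62.2 for SUN2KO, 2580 ± 22.6 for Kashlid and 2660 ± 24.7 for LBD, or 76.4%, 74.2% and 76.5% of WT. The 183 members of the q zone summed to 10688 ± 7.07 CPM for WT, 12950 ± 166 for SUN2KO, 12712 ± 4.24 for Kashlid and 12622 ± 126 for LBD, or 121%, 119% and 118% of WT. The p tip stood at 64.2%, 61.9% and 65.5% of WT, and the q tip at 149%, 158% and 156%.

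Most members of a zone shared its direction. In the p zone 75, 74 and 71 of 83 members were below WT in SUN2KO, Kashlid and LBD, and in the q zone 161, 154 and 164 of 183 were above. With edgeR's quasi-likelihood test (p under 0.05 after Benjamini-Hochberg adjustment across the 14016 tested genes), 56, 54 and 56 members of the p zone were called lower, where 19.1%, 22.7% and 21% of all tested genes were. In the q zone 114, 120 and 119 members were called higher, where 17.5%, 21.7% and 19% of all tested genes were. In the middle zone 75, 64 and 57 of 234 were called higher and 40, 38 and 41 lower. Nothing is read from these counts, since the zones were drawn from the same contrasts. For the middle zone the count called higher in SUN2KO was 49 without SUN2KO replicate 1 and 46 without WT replicate 2, the count called lower was 26 without SUN2KO replicate 1, and that called higher in LBD was 36 without WT replicate 2.

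The shift was present in each class of expression level and gene length. Among the 36 members of the p zone at a mean of at least 20 CPM, where counting error is small, the quartiles of the log2 fold change in SUN2KO were -0.55 and -0.31, against -0.17 and 0.15 over the 8213 tested genes at that level. For the 120 such members of the q zone they were 0.20 and 0.45. When the p zone was cut into 3 classes of genomic length, the medians in SUN2KO were -0.40, -0.51 and -0.47 from short to long. In the q zone the same cut gave 0.36, 0.35 and 0.36.

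The steps along the chromosome did not all fall at the zone limits. In windows of 5 Mb the medians in SUN2KO, Kashlid and LBD were -0.42, -0.57 and -0.57 from 25 to 30 Mb. They were -0.62, -0.56 and -0.60 from 30 to 35 Mb, so no step fell at 30 Mb. From 90 to 95 Mb they were -0.03, -0.01 and 0.04, and from 95 to 100 Mb 0.30, 0.26 and 0.27. Windows of 5 Mb cannot place that step more finely. The 16 members that start between 30 and 37.5 Mb, in the middle zone, had medians of -0.64 in SUN2KO, -0.59 in Kashlid and -0.61 in LBD, and 15 of the 16 were below WT in each line. The low stretch thus ran from the p end to about 37.5 Mb. From 37.5 to 62.5 Mb the 68 members were at 0.31, 0.27 and 0.23, from 62.5 to 97.5 Mb the 163 members were at 0.03, -0.01 and 0.01, and from 97.5 to 125 Mb the 153 members were at 0.34, 0.37 and 0.37. From 125 Mb to the end the 39 members were at 0.62, 0.77 and 0.73. These finer limits were chosen after seeing the values. The middle zone's median near 0 is therefore a mixture of a low, a high and a level stretch.

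**Figure D3:**
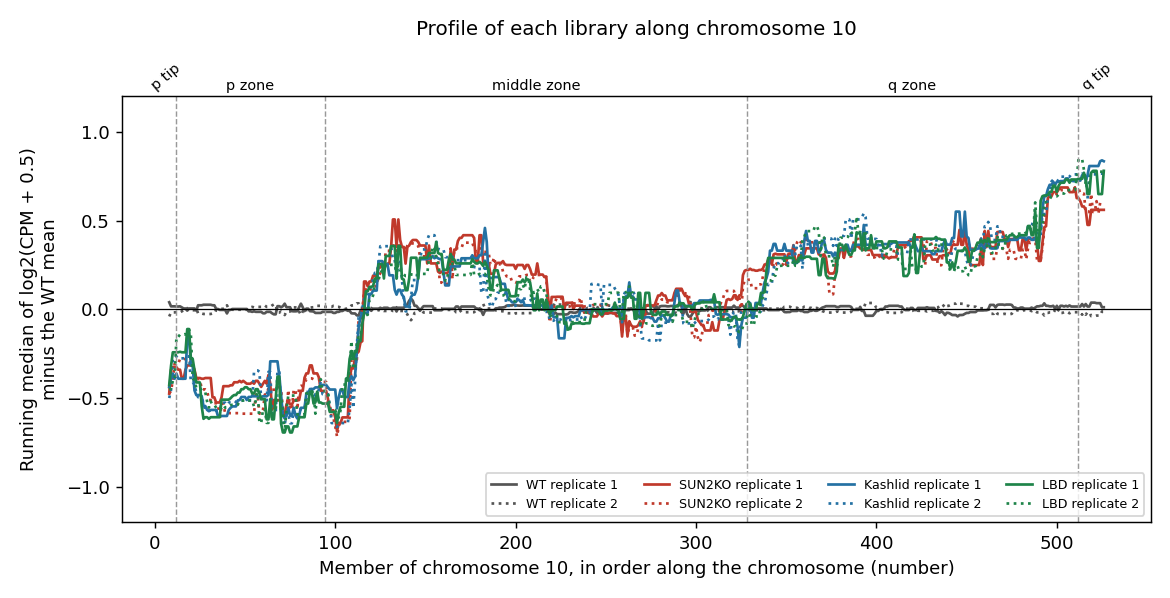
Running median over 15 members of log2(CPM + 0.5) minus the WT mean (vertical axis) in order along chromosome 10 (horizontal axis), 1 line per library (solid for replicate 1, dotted for replicate 2), with dashed lines at the zone limits. The 6 modified libraries follow each other through the low stretch, the high stretch, the level stretch and the 2 upward steps, while both WT libraries stay near 0.

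Single members beside each limit varied. At 5 Mb, PITRM1, a mitochondrial peptidase, was at -0.97, -0.97 and -0.95 in SUN2KO, Kashlid and LBD, and KLF6, a zinc finger transcription factor, at -0.86, -0.72 and -0.67. Just beyond that limit AKR1C1 was at 2.06, 1.48 and 2.08 and AKR1C2 at 4.31, 3.83 and 4.51. At 30 Mb, LOC102724316 was at -0.12, -0.52 and -0.45 on the near side, and SVIL, an actin-binding protein, at -0.84, -0.65 and -0.68. On the far side MTPAP, the mitochondrial poly(A) polymerase, was at -0.63, -0.64 and -0.71, and MAP3K8, a kinase of the MAP kinase cascade, at -0.65, -0.48 and -0.76. There was no step between SVIL and these members. At 95 Mb, HHEX, a homeobox factor, was at -0.04, 0.10 and 0.19, EXOC6, of the exocyst, at -0.05, -0.01 and -0.09, MYOF, a membrane repair protein, at -0.08, -0.52 and -0.37, and CEP55, of the midbody, at -0.21, -0.51 and -0.28. Without SUN2KO replicate 2 CEP55 was at -0.12 in SUN2KO. With 1 library left out, the SUN2KO values of HHEX ranged from -0.34 to 0.23 and those of EXOC6 from -0.19 to 0.08. At 130 Mb, PTPRE, a phosphatase, was at -0.11, 0.64 and 1.25 and MKI67, the proliferation antigen Ki-67, at 0.42, 0.15 and 0.24, while MGMT beyond the limit was at 0.75, 0.84 and 0.83 and GLRX3, a glutaredoxin, at 0.57, 0.48 and 0.40.

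Genes of adhesion and the cytoskeleton lay on both sides of WT. VIM, the intermediate filament of mesenchymal cells (chromosome 10, 17270258 to 17279592), stood at 400 and 408 CPM for WT, 302 and 297 for SUN2KO, 281 and 319 for Kashlid, and 333 and 341 for LBD. All modified libraries were below both WT libraries, at -0.43 ± 0.05 (log2, SE), -0.43 ± 0.05 and -0.26 ± 0.05. ITGB1, the beta 1 integrin (33189246 to 33224486), stood at 917 and 945 CPM for WT, 561 and 521 for SUN2KO, 483 and 452 for Kashlid, and 534 and 524 for LBD. It was at -0.78 ± 0.05, -0.99 ± 0.05 and -0.82 ± 0.05, again without overlap. KIF5B, the kinesin-1 motor (32297938 to 32345371), was at -0.61, -0.73 and -0.63. On the other arm, DOCK1, an activator of the GTPase Rac (128593978 to 129250781), stood at 62.7 and 60.2 CPM for WT, 104 and 102 for SUN2KO, 102 and 104 for Kashlid, and 103 and 96.9 for LBD. Every modified library was above both WT libraries, at 0.75 ± 0.06, 0.75 ± 0.06 and 0.70 ± 0.06. ADAM12, a metalloprotease, was at 1.22, 0.92 and 1.35, and ADD3, an adducin of the membrane skeleton, at 1.26, 1.27 and 1.09. Of the adhesion and cytoskeleton list, 5 of 5 members of the p zone were below WT in each line, as were 7, 9 and 7 of 9 in the middle zone, and 7 of 9 in the q zone were above WT in each line. Its q zone medians were 0.51, 0.37 and 0.35, beside 0.36, 0.38 and 0.37 for the whole zone. Such counts by zone, here and for the lists that follow, describe values that the zone limits were drawn from.

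Cell cycle and genome maintenance genes also lay on both sides. MCM10, a replication initiation factor (13203554 to 13253104), stood at 56.6 and 60.2 CPM in WT and 40.5 to 47.3 in the 6 modified libraries, at -0.40, -0.52 and -0.49. SUV39H2, a histone methyltransferase of heterochromatin, was at -0.47, -0.49 and -0.47. BUB3, of the spindle checkpoint (124913760 to 124924886), stood at 189 and 197 CPM for WT, 308 and 303 for SUN2KO, 285 and 298 for Kashlid, and 295 and 293 for LBD. All modified libraries lay above WT, at 0.66 ± 0.05, 0.59 ± 0.05 and 0.61 ± 0.05. SMC3, the cohesin subunit, was at 0.43, 0.52 and 0.39, and MGMT, which repairs alkylated guanine, stood at 16.1 and 14.7 CPM in WT and 23.8 to 28.2 in the modified libraries. CDK1, the mitotic kinase, in the level stretch, was at -0.09, -0.18 and -0.04. Without WT replicate 1 its value in Kashlid was -0.11. All 6 listed members in the p zone were below WT in each line, with medians of -0.49, -0.48 and -0.48, and 8 of 9 in the q zone were above, with medians of 0.42, 0.52 and 0.39.

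**Figure D4:**
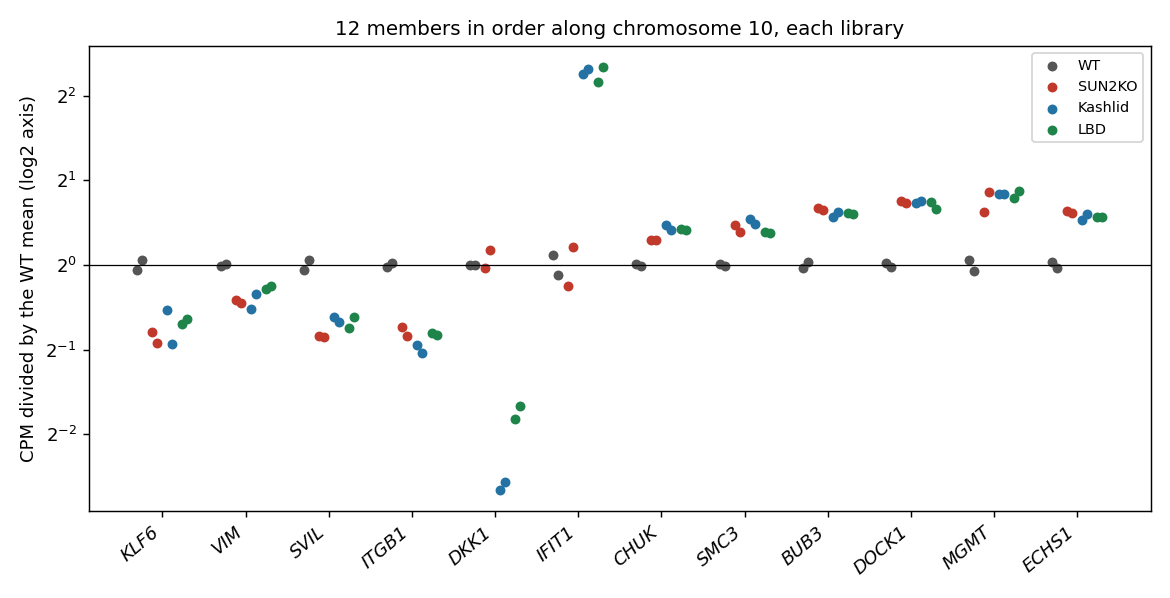
CPM of 12 members divided by the mean of the 2 WT libraries (vertical axis, log2 scale), in order along chromosome 10 (horizontal axis), 1 point per library. From KLF6 to ITGB1 the modified libraries lie below WT, from CHUK to ECHS1 they lie above WT, and IFIT1 and DKK1 set Kashlid and LBD apart from SUN2KO.

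Signalling genes and transcription factors were found on both sides as well. KLF6 stood at 40.2 and 43.7 CPM for WT, 24.2 and 22.1 for SUN2KO, 29 and 21.9 for Kashlid, and 25.8 and 27 for LBD, all below WT. ZEB1, a repressor of epithelial genes, was at -0.47, -0.31 and -0.35, and CREM, a cAMP-responsive factor, at -1.04, -0.89 and -0.83. CHUK, the kinase IKK alpha (101948124 to 101989344), stood at 52.7 and 51.7 CPM for WT, 63.9 and 64.2 for SUN2KO, 72.6 and 69.7 for Kashlid, and 70 and 69.6 for LBD. It was at 0.30 ± 0.06, 0.45 ± 0.06 and 0.42 ± 0.06, with no overlap with WT. NFKB2, the NF-kB subunit p100, was at 0.38, 0.46 and 0.62, and SUFU, an inhibitor of Hedgehog signalling, at 0.33, 0.46 and 0.51. SUFU varied with the libraries: without WT replicate 2 the 3 values were 0.17, 0.31 and 0.35, and without SUN2KO replicate 2 that of SUN2KO was 0.19. Of 13 listed members in the q zone 12, 13 and 13 were above WT, with medians of 0.44, 0.49 and 0.54. In the middle zone 5, 5 and 4 of 12 were above WT and the others below.

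Metabolic genes had the lowest q zone median of the 6 lists in each line, and held 3 of the 8, 9 and 12 members of the p zone that were above WT. PFKP, the platelet phosphofructokinase of glycolysis, in the p tip, stood at 283 and 279 CPM in WT and 173 to 201 in the modified libraries. PFKFB3, which makes the activator of that enzyme, was at -0.66, -0.50 and -0.65, and PHYH, a peroxisomal hydroxylase, at -0.91, -0.97 and -0.77. In the q zone UROS, of haem synthesis, was at 0.75, 0.79 and 0.72, but PRDX3, a mitochondrial peroxiredoxin, was at 0.17, 0.07 and 0.08. Of 11 listed members there 11, 6 and 9 were above WT, with medians of 0.17, 0.07 and 0.12. ECHS1, of mitochondrial fatty acid oxidation, in the q tip, stood at 124 and 118 CPM in WT and 175 to 188 in the modified libraries. IDE, whose promoter was shown above, was at 0.23, -0.06 and 0.00, and TACC2 at 0.42, 0.30 and 0.35. NMT2 was at -0.34, -0.45 and -0.68. Its WT libraries stood far apart, at 10.3 and 6.42 CPM, and without WT replicate 1 the 3 values were 0.04, -0.07 and -0.30.

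RNA processing genes were below WT in the p zone and above it in the q zone. RBM17, a splicing factor, was at -0.43, -0.50 and -0.44, and UPF2, of nonsense-mediated decay, at -0.35, -0.31 and -0.37. EIF3A, a subunit of the initiation factor eIF3 in the q zone, stood at 467 and 451 CPM in WT and 520 to 573 in the modified libraries, at 0.27, 0.25 and 0.18. NOLC1, of the nucleolus, was at 0.24, 0.28 and 0.30. All 5 listed members in the p zone were below WT in each line, and all 6 in the q zone above. In the middle zone 5 of 6 were above WT in each line, with medians of 0.21, 0.27 and 0.17, beside 0.08, 0.03 and 0.05 for the whole zone.

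The members highest above WT in the p zone were the aldo-keto reductases, which reduce steroids and lipid aldehydes. AKR1C2 (5029968 to 5060225) stood at 1.25 and 0.909 CPM for WT, 23.1 and 19.9 for SUN2KO, 14.3 and 16.5 for Kashlid, and 24.9 and 24.3 for LBD. Against a p zone at about -0.5, it was at 4.31 ± 0.19, 3.83 ± 0.19 and 4.51 ± 0.18, with AKR1C1 at 2.06, 1.48 and 2.08 and AKR1C3 at 0.64, 0.26 and 0.69. Without WT replicate 2 AKR1C3 was at 0.15 in Kashlid. The paralogs are near-identical and may share reads, so each of these values is uncertain. The 17 members from 5 to 10 Mb, which include them, had medians of -0.31, -0.21 and -0.14, weaker than the 66 from 10 to 30 Mb at -0.50, -0.56 and -0.58.

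Other members stood far from the median of their stretch, on either side of it. PTPLA, a dehydratase of very long chain fatty acid synthesis, stood at 24.4 and 24.8 CPM in WT and 7.16 to 10.9 in the modified libraries, at -1.21, -1.54 and -1.48. PRTFDC1, related to a purine salvage enzyme, had 142 and 146 counts for WT but 2 and 1 for SUN2KO, 2 and 1 for Kashlid, and 2 and 3 for LBD. The ratio of WT to the modified line was 103 (95% exact interval 34.9 to 503, for counting error only) in SUN2KO, 93.2 (31.6 to 455) in Kashlid and 55.7 (23.6 to 173) in LBD. PTPN20B, a phosphatase gene with near-identical copies nearby, had 104 and 80 counts for WT, 1 and 0 for SUN2KO, 1 and 0 for Kashlid, and 3 and 4 for LBD. PRTFDC1 and PTPN20B were named after their values were seen. Of the middle zone members named at a mean of at least 5 CPM, 3 were highest above WT by mean difference. They were UNC5B, a netrin receptor, at 1.99, 1.71 and 1.81, ANK3, an ankyrin, at 1.57, 1.87 and 1.52, and ALOX5, the 5-lipoxygenase, at 1.67, 2.66 and 2.76. The highest values of any member of that zone were 3.25, 2.95 and 3.59. In the q zone HTRA1, a secreted protease, was at -0.35, -0.63 and -0.44 and PDLIM1, a partner of alpha-actinin, at -0.22, -0.43 and -0.41.

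The genes at the tips followed the same sides. In the p tip, GTPBP4, a GTPase of ribosome assembly, stood at 119 and 107 CPM in WT and 72.5 to 84 in the modified libraries, and LARP4B, an RNA-binding protein, at 83.8 and 81.9 in WT and 59.5 to 68.1. Neither overlapped with WT. WDR37, at -0.41, -0.56 and -0.21, depended on the libraries: without WT replicate 1 its values in SUN2KO and LBD were -0.28 and -0.08. In the q tip, TUBGCP2, of the gamma-tubulin complex, stood at 77.9 and 73.1 CPM in WT and 117 to 130 in the modified libraries, and STK32C, a kinase, at 8.5 and 8.35 in WT and 15.7 to 20.7. Both lay above WT in every modified library. INPP5A, an inositol phosphatase, was at 0.50, 0.34 and 0.53, and FUOM, a fucose mutarotase and the lowest of the members of at least 5 CPM, at 0.11, 0.07 and 0.27.

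Between the modified lines, which the zones were not drawn from, the chromosome was nearly level. Kashlid against SUN2KO had medians of -0.06 in the p zone, -0.02 in the middle zone and 0.03 in the q zone. LBD against SUN2KO had -0.05, -0.04 and 0.01, and LBD against Kashlid 0.01, -0.01 and -0.02. The largest zone difference was in the q tip, at 0.21 for Kashlid against SUN2KO with 17 of 22 members above 0, and 0.18 for LBD against SUN2KO with 20 of 22 above 0. LBD against Kashlid was at -0.01 there. These 3 comparisons share libraries with one another, and no p is given for a zone.

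**Figure D5:**
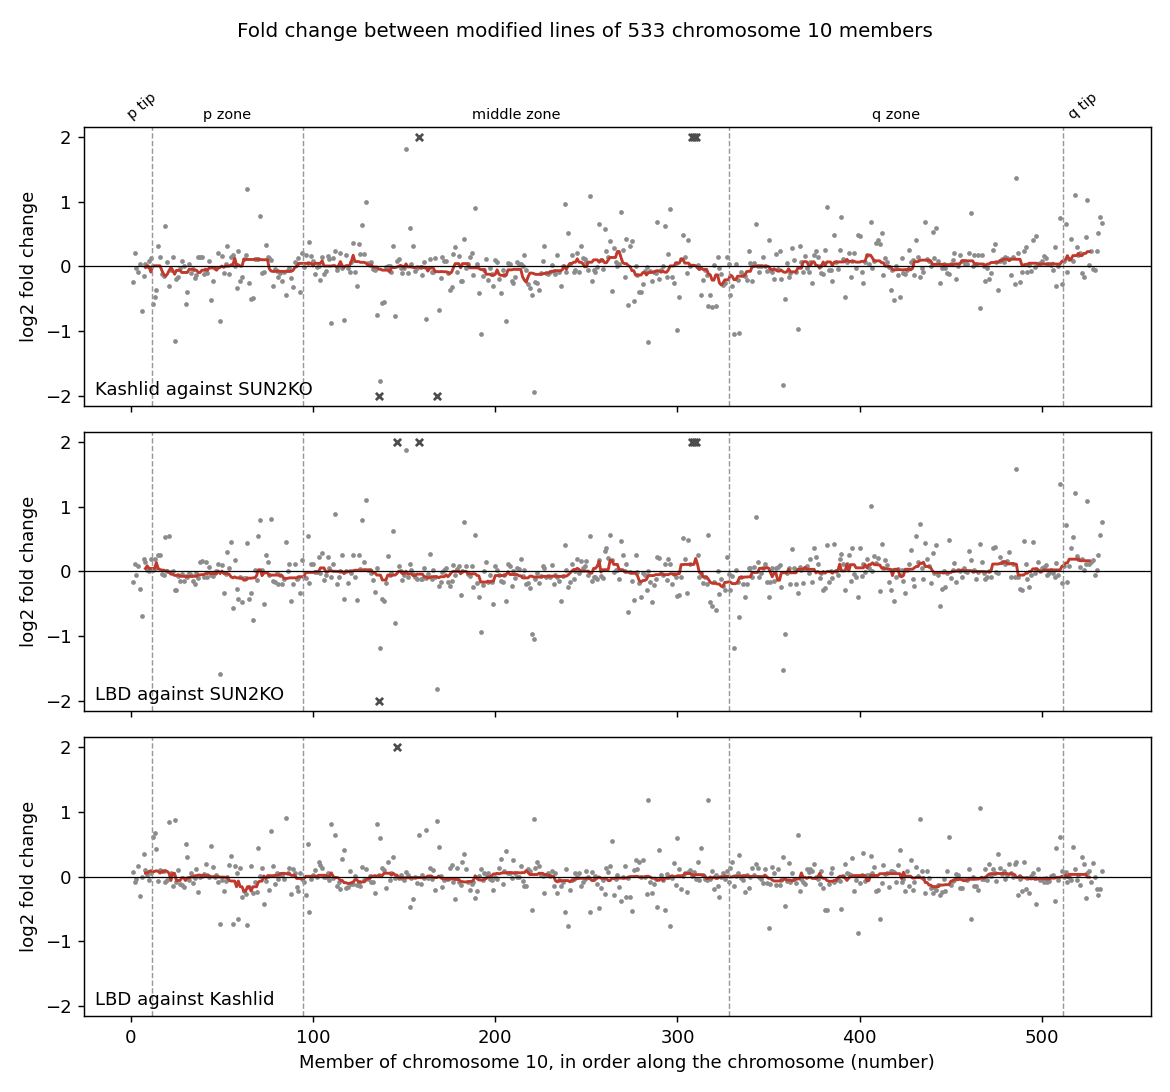
Log2 fold change between modified lines (vertical axis) of the 533 members in order along chromosome 10 (horizontal axis), for Kashlid against SUN2KO, LBD against SUN2KO and LBD against Kashlid. Grey points are members, crosses are members beyond 2 in either direction drawn at the edge, the red line is the running median of 15 members, and dashed lines mark the zone limits. The line stays close to 0 along most of the chromosome, dips around the limit between the middle zone and the q zone in both comparisons with SUN2KO, and is above 0 in their q tip, where the medians are 0.21 and 0.18.

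With edgeR's quasi-likelihood test, 45 members were higher and 50 lower in Kashlid than in SUN2KO, that is 8.44% and 9.38% of members, where 8.92% and 9.13% of all tested genes were. In LBD against SUN2KO 31 were higher and 37 lower, or 5.82% and 6.94%, where 6.69% and 6.79% of all were. In LBD against Kashlid 14 were higher and 4 lower, or 2.63% and 0.75%, where 1.63% and 1.28% of all were. The members' shares were thus near the background in the first 2 comparisons. With the replicate number as a block 9 members were lower in LBD than in Kashlid, while no other count between the lines moved by over 1.5 times and no call of a named member changed. The third comparison rests on few genes: the count called higher ranged from 5 to 16 and that called lower from 0 to 14 when a library was left out. With SUN2KO replicate 1 left out, 24 were higher and 24 lower in Kashlid than in SUN2KO, and 19 and 16 in LBD. Without SUN2KO replicate 2 the count lower in Kashlid was 33 and the counts in LBD were 20 and 19, and without LBD replicate 2 those in LBD were 18 and 16.

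The interferon-induced IFIT genes, whose proteins bind foreign RNA, gave the 3 largest rises from SUN2KO among members of at least 5 CPM, in Kashlid and in LBD. IFIT1 (91152303 to 91166244) stood at 17.8 and 15.1 CPM for WT, 13.9 and 19.1 for SUN2KO, 78.8 and 81.7 for Kashlid, and 73.4 and 83.2 for LBD. WT and SUN2KO overlapped, and Kashlid and LBD overlapped well above them. IFIT1 rose by 2.28 ± 0.11 in Kashlid and 2.24 ± 0.11 in LBD against SUN2KO (edgeR's quasi-likelihood test with Benjamini-Hochberg adjustment, adjusted p = 2.55e-12 and 3.05e-12). IFIT2 rose by 2.34 and 2.35 and IFIT3 by 2.32 and 2.39, with adjusted p of at most 3.18e-13 (edgeR, Benjamini-Hochberg). Against WT, with 1 library left out, IFIT3 was at -0.87 to -0.76 in SUN2KO. It was at 1.46 to 1.55 in Kashlid and 1.49 to 1.66 in LBD. IFIT2 was at -0.27 to -0.18, 2.10 to 2.12 and 2.01 to 2.23 in the same order. Part of the IFIT3 rise from SUN2KO was thus a level below WT in SUN2KO. IFIT5, the fourth listed member of the cluster, was at 0.02 ± 0.12 and 0.25 ± 0.12 and did not pass (adjusted p = 0.952 and 0.186, edgeR, Benjamini-Hochberg). Kashlid and LBD differed from each other by -0.04 ± 0.09 in IFIT1, 0.01 ± 0.07 in IFIT2 and 0.07 ± 0.08 in IFIT3.

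DKK1, a secreted inhibitor of Wnt signalling (54074041 to 54077417), gave the largest fall from SUN2KO among members of at least 5 CPM that passed the test. It stood at 35.3 and 35.3 CPM for WT, 34.3 and 39.8 for SUN2KO, 5.61 and 5.98 for Kashlid, and 10 and 11.1 for LBD, so that only WT and SUN2KO overlapped. Against SUN2KO it fell by 2.68 ± 0.12 in Kashlid and 1.82 ± 0.11 in LBD (edgeR's quasi-likelihood test with Benjamini-Hochberg adjustment, adjusted p = 1.06e-12 and 1.47e-10). LBD was above Kashlid by 0.86 ± 0.14 (adjusted p = 0.00156, edgeR, Benjamini-Hochberg). MYPN, a sarcomere protein, stood at 85.6 and 81.1 CPM for WT, 130 and 128 for SUN2KO, 65.6 and 59.9 for Kashlid, and 73.5 and 61.8 for LBD. SUN2KO was highest in both libraries, and MYPN fell from it by 1.04 ± 0.07 (log2) in Kashlid and 0.93 ± 0.07 in LBD (adjusted p = 1.68e-09 and 9.11e-09, edgeR, Benjamini-Hochberg).

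Other genes also set SUN2KO apart from the truncated lines. ALOX5 stood at 2.14 and 2.78 CPM for WT, 6.87 and 8.81 for SUN2KO, 16.8 and 14.4 for Kashlid, and 17.6 and 16 for LBD. It rose from SUN2KO by 0.99 ± 0.15 in Kashlid and 1.10 ± 0.15 in LBD (edgeR's quasi-likelihood test with Benjamini-Hochberg adjustment, adjusted p = 7.22e-05 and 2.27e-05). IDI1, an enzyme of isoprenoid synthesis in the p tip, fell by 0.69 ± 0.09 in both (adjusted p = 1.86e-05 and 2.27e-05, edgeR, Benjamini-Hochberg). MYOF was at -0.44 ± 0.05 and -0.29 ± 0.05 (adjusted p = 6.04e-07 and 0.000106, edgeR, Benjamini-Hochberg). In the q tip ADAM8, a metalloprotease, stood at 4.1 and 3.41 CPM for WT, 3.73 and 5.21 for SUN2KO, 8.27 and 10.1 for Kashlid, and 8.56 and 10.5 for LBD. It rose from SUN2KO by 1.03 ± 0.20 and 1.09 ± 0.20 (adjusted p = 0.000754 and 0.000536, edgeR, Benjamini-Hochberg). MSMB, a secreted prostate protein named after its values were seen, had 5 and 1 counts for WT, 0 and 0 for SUN2KO, 21 and 27 for Kashlid, and 36 and 38 for LBD. With a floor of 3 counts over the SUN2KO group it was at least 17.7-fold higher in Kashlid and at least 27.4-fold higher in LBD.

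ZNF488, a zinc finger repressor, stood at 8.93 and 8.01 CPM in SUN2KO and 4.72 to 5.09 in the other 6 libraries. It fell from SUN2KO by 0.77 ± 0.17 in Kashlid and 0.79 ± 0.17 in LBD (adjusted p = 0.00349 and 0.00378, edgeR, Benjamini-Hochberg). Without SUN2KO replicate 1 the adjusted p was 0.0554 and 0.0598, and without LBD replicate 2 it was 0.0543 for LBD.

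LBD and Kashlid differed in few members. Beside DKK1, AKR1C2 was higher in LBD by 0.67 ± 0.12 (edgeR's quasi-likelihood test with Benjamini-Hochberg adjustment, adjusted p = 0.00309). AKR1C3 was higher by 0.42 ± 0.07 and PTPRE by 0.61 ± 0.14 (adjusted p = 0.00307 and 0.0163, edgeR, Benjamini-Hochberg). The paralog AKR1C1 was at 0.61 with the 2 groups alone and did not pass there (adjusted p = 0.0541, edgeR, Benjamini-Hochberg). Against SUN2KO with 1 library left out, AKR1C1, AKR1C2 and AKR1C3 were at -0.68 to -0.49, -0.58 to -0.37 and -0.44 to -0.31 in Kashlid. LBD lay nearer SUN2KO, at -0.09 to 0.13, 0.09 to 0.30 and -0.01 to 0.10. PTPRE stood at 8.03 and 6.42 CPM for WT, 7.31 and 6.07 for SUN2KO, 11.2 and 11.3 for Kashlid, and 17.1 and 17.3 for LBD, an order in which only WT and SUN2KO overlap. Its adjusted p was 0.0506 without Kashlid replicate 1, 0.1 without LBD replicate 1 and 0.105 without LBD replicate 2, and that of AKR1C3 was 0.0602 without LBD replicate 1. FRAT1, which inhibits GSK3, was lower in LBD at -0.80 ± 0.19, DDIT4, a stress-induced inhibitor of mTORC1, at -0.25 ± 0.06, and PDCD4, an inhibitor of translation, at -0.24 ± 0.06 (adjusted p = 0.0244, 0.0231 and 0.0332, edgeR, Benjamini-Hochberg). These 3 calls were lost without Kashlid replicate 1 (at -0.74, -0.14 and -0.16) and without LBD replicate 1 (at -0.80, -0.17 and -0.28). They were also lost when only the 2 groups were fitted (adjusted p = 0.0718, 0.11 and 0.128, edgeR, Benjamini-Hochberg). Those of FRAT1 and PDCD4 were lost without LBD replicate 2 as well. That of DDIT4 was lost with DESeq2 (adjusted p = 0.187) and without SUN2KO replicate 1. The call of PDCD4 was also lost without either SUN2KO replicate and without WT replicate 2.

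By function, the cell death and interferon list had 7 of 13 members higher and 1 lower in Kashlid than in SUN2KO, and 6 higher and 1 lower in LBD, by edgeR. With DESeq2 5 were higher and 1 lower in each of these comparisons. Of all tested genes 8.92% were higher and 9.13% lower in Kashlid, and 6.69% and 6.79% in LBD. Of 30 signalling genes 3 were higher and 1 lower in Kashlid, and 3 and 2 in LBD, with 2 and 1 higher by DESeq2. The 3 of 30 higher in Kashlid are near the 8.92% of all genes. Of 24 cytoskeleton and adhesion genes 4 were lower and 0 higher in Kashlid by edgeR, where 2 were higher at an unadjusted p under 0.05 and 0 by DESeq2; in LBD 3 were lower and 1 higher. Of 19 cell cycle genes 4 were lower and 1 higher in Kashlid, and in LBD 3 were lower and 0 higher by edgeR, by DESeq2 or at an unadjusted p under 0.05. Of 33 metabolic genes 7 were lower in Kashlid and 5 in LBD by edgeR, 7 and 2 by DESeq2, and 0 were higher by edgeR or DESeq2, with 1 and 2 higher at an unadjusted p under 0.05. Of 18 RNA processing genes 0 were called in either comparison by edgeR or DESeq2, and at an unadjusted p under 0.05 there was 1 higher in Kashlid and 1 lower in LBD. The lists' medians lay between -0.09 and 0.12 apart from the cell death and interferon list, at 0.31 in Kashlid and 0.37 in LBD, beside medians of 0.01 and 0.00 over all tested genes. Its members include the 3 IFIT genes described above, which lie side by side, and the lists were chosen with earlier results of these data known.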

How the data were processed

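Total RNA of 8 libraries of MDA-MB-231 cells, 2 in each of 4 groups, had been sequenced. Per the submitters' processing notes, the authors used Trim Galore, STAR 2.7.1a, HTSeq, bedtools 2.24.0, DESeq2 and the hg19 genome; which annotation and which strandedness were used is not given in the sources used here, and overlapping, antisense and near-identical genes are therefore uncertain. The deposited counts are whole reads per gene, not normalised, and 0 entries name no gene. The deposited log2 fold changes against WT are the authors' own, known by their correlation of 0.999 with the refitted ones; positions came from the same tables, and 12 per-library columns without names were not used. Total counts per library were 17115114 and 17779388 for WT, 18814795 and 18662262 for SUN2KO, 17041108 and 16851763 for Kashlid, and 17146119 and 16570099 for LBD.

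All 4 groups were fitted together, without a block, with edgeR 4.0.16 (R 4.3.3, limma 3.58.1): TMM factors, filterByExpr, which kept 14016 of 25369 genes, the quasi-likelihood test with 4 residual degrees of freedom, and Benjamini-Hochberg adjustment over all genes tested. CPM, the count scaled to a common library size, use TMM-adjusted sizes unless library size is named. The fit was tested on simulated data. Comparisons with WT share its 2 libraries, and those among modified lines share theirs. The replicates of a group differed by more than counting noise, with a mean chi-square per gene of 2.51 to 5.6, so none was counted as a repeat of another.

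Members and lists were chosen with earlier results of these data known. Genes were named from 6 lists (137 of 143 symbols were members), as the 3 highest and 3 lowest of each zone by mean difference from WT, as the 2 on either side of each limit, and as the 3 largest rises and falls that passed the test between modified lines, all but the lists at a mean of at least 5 CPM. Values of 1 listed gene are not reported here. Alternatives were other normalisation, low-count filters, member thresholds, zone limits and centring, DESeq2 1.42.0, the authors' fold changes, the 2 groups alone, a replicate block, and each library left out. Counting intervals and floors cover counting error only.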

Additional observations from a re-analysis of the deposited data

How the results depend on the processing

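The p zone stayed below WT and the q zone above it in all 3 modified lines under every alternative run. The alternatives reused the libraries that the zones were drawn from, so this outcome is a description and not a test. Zone medians moved by more than the spread between replicates, which was small, as follows, for SUN2KO, Kashlid and LBD against WT where 3 values are given. With library size only, the p zone was -0.46 in Kashlid and -0.50 in LBD, the middle zone 0.08, 0.07 and 0.08 and the q zone 0.36, 0.41 and 0.40. With zones narrowed by 5 Mb at both ends, the p zone was -0.51, -0.56 and -0.58, the middle zone 0.13, 0.06 and 0.07 and the q zone of SUN2KO 0.35. With limits at 37.5 and 97.5 Mb, chosen after seeing the data, the p zone of SUN2KO was -0.50, the middle zone 0.10, 0.06 and 0.06 and the q zone 0.36, 0.42 and 0.39. With median-ratio factors or DESeq2, the middle zone was 0.07 and 0.03 and the q zone 0.35 and 0.37 in SUN2KO and Kashlid. With a stricter low-count filter, the middle zone was 0.08, 0.04 and 0.05 and the q zone 0.38 in Kashlid and LBD. With at least 200 counts, the middle zone was 0.07 in SUN2KO and 0.04 in LBD, and the q zone of LBD 0.38. With the 2 groups alone, the middle zone of Kashlid was 0.03 and the q zone 0.38 in Kashlid and LBD; centring on genes off chromosome 10 gave Kashlid 0.03 and 0.37, and no minimum total gave a q zone of 0.36 in SUN2KO.

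Between the modified lines the zone medians that moved, for Kashlid against SUN2KO, LBD against SUN2KO and LBD against Kashlid, remained between -0.06 and 0.07. Library size only gave -0.03 and -0.02 in the p zone for the first 2, 0.01, -0.01 and -0.01 in the middle zone and 0.07, 0.04 and -0.03 in the q zone. Narrowed zones gave -0.01 in the p zone for the first, -0.05 and -0.01 in the middle zone for the other two and 0.06, 0.02 and -0.02 in the q zone. The limits at 37.5 and 97.5 Mb gave -0.02 in the p zone, -0.03 and -0.06 in the middle zone and 0.04, 0.02 and -0.02 in the q zone. Median-ratio factors or DESeq2 gave -0.03 and 0.000 in the middle zone and 0.02 and -0.01 in the q zone for the 2 comparisons of LBD. The stricter filter gave -0.01, -0.04 and -0.01 in the middle zone and 0.04, 0.01 and -0.02 in the q zone, and centring gave -0.03, -0.04 and -0.001 and 0.02, 0.01 and -0.01. At least 200 counts gave -0.01 in the middle zone for Kashlid against SUN2KO and LBD against Kashlid. No minimum total gave 0.001 and -0.02 in the q zone for the comparisons of LBD, and the 2 groups alone gave 0.02 for LBD against SUN2KO. The cause was not tested.

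With 1 library left out, the range for SUN2KO, Kashlid and LBD against WT was -0.51 to -0.42, -0.52 to -0.48 and -0.53 to -0.50 in the p zone, 0.06 to 0.10, 0.01 to 0.04 and 0.03 to 0.06 in the middle zone, and 0.34 to 0.36, 0.37 to 0.40 and 0.37 to 0.38 in the q zone. For Kashlid against SUN2KO it was -0.09 to -0.02, -0.05 to 0.003 and -0.001 to 0.04 in the 3 zones, for LBD against SUN2KO -0.08 to 0.005, -0.06 to -0.02 and -0.004 to 0.02, and for LBD against Kashlid 0.004 to 0.02, -0.02 to 0.01 and -0.02 to 0.01. Members of the middle zone called higher ranged from 46 to 76 in SUN2KO and 36 to 62 in LBD, and those called lower in SUN2KO from 26 to 44. Between the lines 24 to 47 were called higher and 24 to 50 lower in Kashlid than in SUN2KO, 18 to 44 and 16 to 49 in LBD than in SUN2KO, and 5 to 16 and 0 to 14 in LBD than in Kashlid.

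Of members called, DESeq2 gave 24 lower in LBD than in SUN2KO and 2 lower in LBD than in Kashlid. Without a low-count filter 22 were higher and 14 lower in LBD than in Kashlid. With the 2 groups alone 5 were higher and 0 lower by edgeR, where 40 and 40 had an unadjusted p under 0.05; without LBD replicate 1, 0 were lower and 34 had such a p. The labels number the replicates 1 and 2 in each group and do not say what a number shares. Over 10866 genes the replicate differences correlated at -0.046 to 0.09 between WT and the modified lines and at 0.173 to 0.19 among the modified lines, so that the numbers were not taken to pair all 4 groups. With the replicate block 9 members were lower in LBD than in Kashlid, and no other count of members called moved by over 1.5 times. With 2 libraries per group and 4 residual degrees of freedom, small differences of single members could not be resolved, least so at low counts.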
